A study of Homo sapiens with 14 samples.

Results

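This account follows 9 genes of androgen metabolism and glucuronidation in prostate cancer cells treated with SEL120-34A, an inhibitor of CDK8 and CDK19, the kinases of the Mediator complex. The genes were UGT2B15, UGT2B17, UGT2B11, UGT2B28, SRD5A1, SRD5A3, HSD17B4, AKR1C3 and CYB5A, taken by symbol from a table of 62703 genes. They were picked by role, with their levels and their inhibitor responses in each cell line already known. The values below therefore describe the genes and are not independent evidence on the choice. A filter on low counts kept 7 of the 9, and removed UGT2B28 and AKR1C3.

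The study asked whether blocking CDK8 and CDK19 acts like loss of MED12, another subunit of the same Mediator module, in cells that do or do not respond to the antiandrogen enzalutamide. LNCaP (androgen dependent, enzalutamide sensitive), 22Rv1 (androgen responsive, enzalutamide resistant) and PC3 (without the androgen receptor) cells received 1.5 µM SEL120-34A or the solvent dimethylsulfoxide (DMSO) for 3 days. LNCaP and 22Rv1 arms held 3 libraries each and PC3 arms a single library, all made by BRB-seq, which counts a tag at the 3′ end of each transcript. Each line is 1 established cell line, so a difference between lines cannot be told apart from culture history. The labels do not say that replicates were separate cultures, and p-values measure the spread between these libraries.

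Total counts per library ran from 246063 to 909176, and the 22Rv1 SEL120-34A libraries (246063 to 368778) were all shallower than their controls (476455 to 777207). Mitochondrial transcripts took 13.9% to 17.3% of counts in LNCaP DMSO and 16.5% to 23.3% in LNCaP SEL120-34A, and 7.6% to 9.82% and 9.52% to 13.1% in the 22Rv1 arms. With mitochondrial genes removed, the counts of members called were the same in every comparison (1 in LNCaP, 3 in 22Rv1). The part of depth in the values below was examined only by thinning all libraries to 246063 counts, called equal depth here. Summed luminal prostate markers (6 genes) lay between 2884 and 3323 CPM (counts scaled by effective library size) in LNCaP DMSO, between 458 and 544 in 22Rv1 DMSO, and at 84.5 in PC3 DMSO. Summed mesenchymal-type markers (5 genes) reached 3930 CPM in PC3 DMSO, against at most 68.4 in LNCaP DMSO and 129 in 22Rv1 DMSO. The labels of the lines thus matched their markers.

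Androgens are made, activated and cleared inside prostate cells. SRD5A enzymes reduce testosterone to dihydrotestosterone, hydroxysteroid dehydrogenases such as AKR1C3 and HSD17B4 interconvert active and inactive steroids, and CYB5A supports the lyase step of androgen synthesis. The UGT2B enzymes attach glucuronic acid to androgens, which ends their activity, and in androgen-sensitive prostate cells UGT2B15 and UGT2B17 are known to be repressed by androgen.

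The UGT2B genes lie together on chromosome 4 (GRCh38). UGT2B15 (ENSG00000196620.10) spans chr4:68646597-68670652, UGT2B17 (ENSG00000197888.3) chr4:68537173-68576413 and UGT2B11 (ENSG00000213759.10) chr4:69199951-69214748, all on the minus strand. UGT2B28 (ENSG00000135226.18) lies at chr4:69280475-69295050 on the plus strand. Their transcripts are alike, and UGT2B15 and UGT2B17 were identical at 92.3% of 2063 aligned bases. The 3′ ends, which carry the tags, were less alike. Over the last 500 bases UGT2B15 and UGT2B17 were identical at 76.2% of 429 aligned bases, and no 50-base window of 1 occurred in the other. Between UGT2B11 and UGT2B28 the 3′ ends were identical at 96.0% of 251 aligned bases, so only part of the 500 bases was aligned. Of the 50-base windows of UGT2B28, 35.5% occurred in UGT2B11, UGT2B24P or UGT2B25P. For UGT2B11 8.87% occurred in another gene, which was UGT2B28. The counting could therefore divide reads between UGT2B11 and UGT2B28, and values of that pair are uncertain.

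Promoters of 7 of the 9 genes were found in the RefSeq table of GRCh38.p14. The 250 bases before the start of transcription are shown for the 3 genes whose response in 22Rv1 passed the test (UGT2B15, HSD17B4 and CYB5A). They are also shown for UGT2B11, the other UGT2B member with an entry. Capitals mark matches on either strand to TATAA (the TATA box core), GTTAAT (a half-site of the liver factor HNF1), TGTTCT (a steroid receptor half-site), CCAAT and GGGCGG (the GC box). The windows are chr4:68670653-68670902 on the minus strand for UGT2B15, chr4:69214749-69214998 on the minus strand for UGT2B11, chr5:119452247-119452496 on the plus strand for HSD17B4 and chr18:74291964-74292213 on the minus strand for CYB5A.
UGT2B15: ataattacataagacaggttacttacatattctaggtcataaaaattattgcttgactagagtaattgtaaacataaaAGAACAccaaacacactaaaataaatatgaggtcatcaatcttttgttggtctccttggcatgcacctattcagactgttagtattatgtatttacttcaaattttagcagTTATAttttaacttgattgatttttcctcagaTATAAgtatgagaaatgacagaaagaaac
UGT2B11: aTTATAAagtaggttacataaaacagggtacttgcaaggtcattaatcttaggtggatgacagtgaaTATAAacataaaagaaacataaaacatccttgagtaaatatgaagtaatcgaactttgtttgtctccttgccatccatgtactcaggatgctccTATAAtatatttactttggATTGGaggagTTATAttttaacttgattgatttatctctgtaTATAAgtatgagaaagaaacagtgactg
HSD17B4: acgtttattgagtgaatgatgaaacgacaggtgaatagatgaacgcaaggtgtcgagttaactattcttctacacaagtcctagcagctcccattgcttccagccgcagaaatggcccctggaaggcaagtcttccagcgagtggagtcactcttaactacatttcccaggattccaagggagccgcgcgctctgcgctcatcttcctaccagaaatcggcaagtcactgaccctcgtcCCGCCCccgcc
CYB5A: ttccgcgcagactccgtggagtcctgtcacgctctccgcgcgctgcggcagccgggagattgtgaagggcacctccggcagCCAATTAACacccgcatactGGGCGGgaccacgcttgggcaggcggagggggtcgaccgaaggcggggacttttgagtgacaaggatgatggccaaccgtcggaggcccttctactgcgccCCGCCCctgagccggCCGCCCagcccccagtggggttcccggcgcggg

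Motifs were searched in windows of 300 bases, from 250 before to 50 after the start. UGT2B15 and UGT2B11 had a TATAA on the plus strand at 29 and 28 bases before the start. TATAA was in 20.4% of the 35116 promoters of this length. The pair shared a run of 25 bases just upstream of that match, AGTTATATTTTAACTTGATTGATTT, and were identical at 78.7% of 282 aligned bases. UGT2B15 also held the reverse complement of TGTTCT, found in 14.8% of promoters, which UGT2B11 lacked. HSD17B4 held a GC box (in 45.0% of promoters), and CYB5A held 3 of them, with a CCAAT (34.6%) overlapping a GTTAAT match (6.88%). The windows of UGT2B15 and UGT2B11 were 30.3% and 33% G and C, against 55.3% for HSD17B4 and 69.7% for CYB5A, and 1.09% of all promoters had less G and C than that of UGT2B15. These matches are descriptions of the letters and not binding sites.

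**Figure D1:**
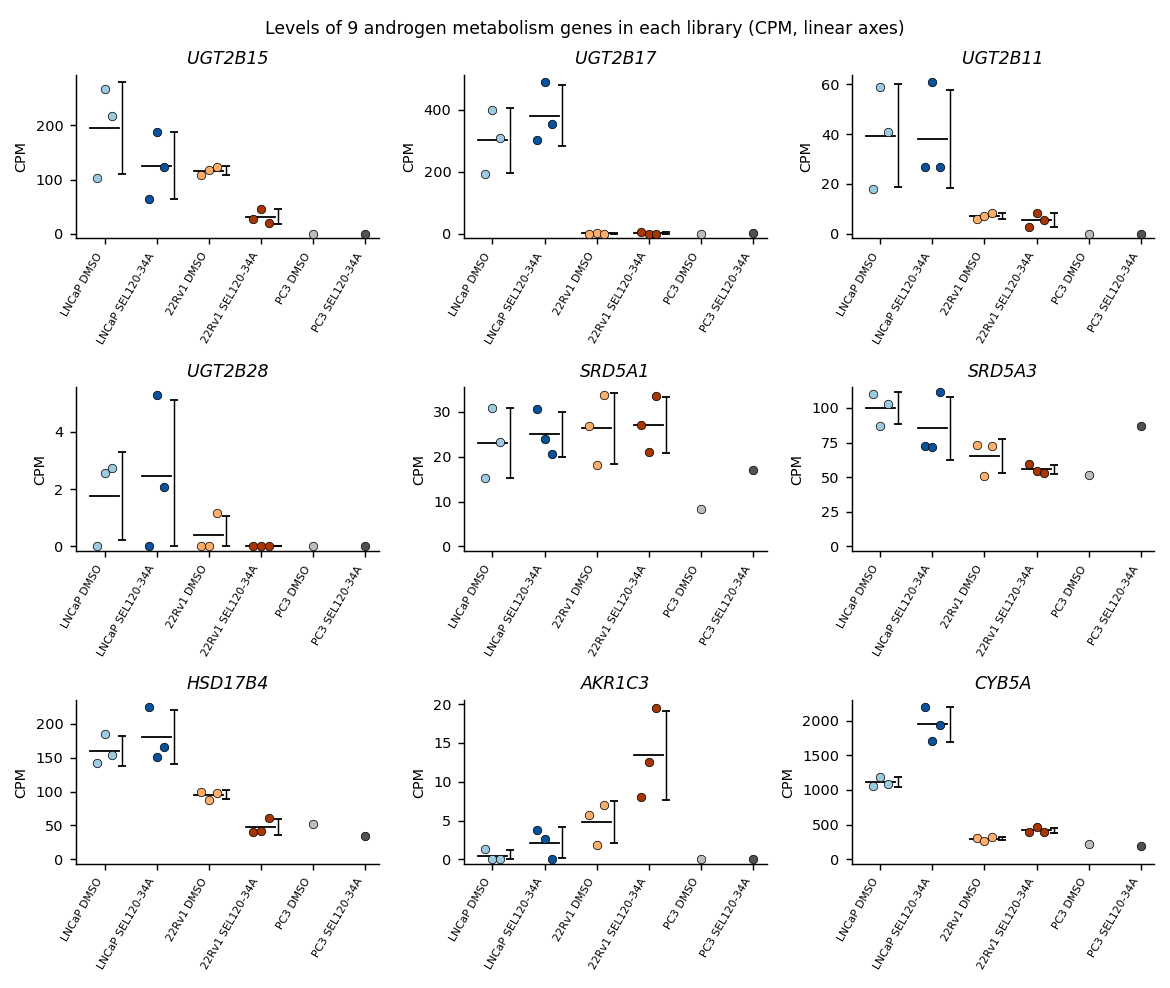
Level of each of the 9 genes in CPM (linear axes, counts scaled by library size), with 1 point per library, the group mean as a horizontal line and the SD as a bar beside it (3 libraries per group in LNCaP and 22Rv1, 1 in PC3). UGT2B15 lies between 19.5 and 46.2 CPM in treated 22Rv1, all under the 107 to 124 CPM of its controls, and CYB5A is higher after SEL120-34A in every treated LNCaP and 22Rv1 library than in its controls.

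To see where the glucuronidation enzymes were expressed, levels in the DMSO libraries of the lines were compared first. Of the 7 genes tested, 6 were higher in LNCaP than in 22Rv1 at an adjusted p under 0.05 in edgeR's quasi-likelihood test, and none of the 7 was lower. UGT2B17 and UGT2B11 passed the filter only through their LNCaP counts, so their calls as higher in LNCaP were not independent of the filter. Without the filter AKR1C3 was tested too and was lower in LNCaP (adjusted p 0.0491), which made 7 members called. Lines differ widely, and 49% of all 7086 tested genes passed in this comparison (24% higher and 25% lower in LNCaP). In bulk RNA, fewer expressing cells and less RNA per cell cannot be told apart.

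UGT2B17, which glucuronidates testosterone and dihydrotestosterone, was present in LNCaP and near absent in the other lines. LNCaP DMSO libraries held 140, 156 and 227 UGT2B17 counts, or 193, 400.2 and 310.4 CPM. The 22Rv1 DMSO libraries held 0, 1 and 0 counts, the 22Rv1 SEL120-34A libraries 2, 0 and 0, and the PC3 libraries 0 and 1. The LNCaP and 22Rv1 groups did not overlap, as was so for 56.3% of all tested genes. Summed over 3 libraries, 523 counts stood against 1, a ratio of 546 with an exact 95% interval from 97.6 to 21613 that covers counting error only. Over all 6 libraries of 22Rv1, UGT2B17 gave 3 of the 258 counts of UGT2B15 and UGT2B17 together, a share of 1.16% (exact binomial interval 0.240% to 3.36%).

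UGT2B15, which clears dihydrotestosterone and androstanediol, was expressed in both androgen-responsive lines. Its levels were 102, 267 and 217 CPM in LNCaP DMSO and 107, 118 and 124 CPM in 22Rv1 DMSO. These groups overlapped, since the lowest LNCaP library lay under all 3 of 22Rv1. The fitted difference was 0.69 ± 0.23 (SE) on the log2 scale, higher in LNCaP (edgeR adjusted p 0.01197). The call was lost without LNCaP DMSO replicate 2 (0.107) or 3 (0.0825), with library totals (0.101), at equal depth (0.286), in DESeq2 (0.190) and in limma-trend (0.280), over a range from 9.95e-05 to 0.286. No UGT2B15 count was found in either PC3 library, where 3 counts would have been 3.17 and 5.11 CPM.

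UGT2B11, a relative with little known activity on androgens, had 13, 23 and 30 counts in LNCaP DMSO and 3, 4 and 7 in 22Rv1 DMSO (39.3 ± 20.6 and 7.06 ± 1.22 CPM, SD, n = 3). The groups did not overlap, as was so for 56.3% of all tested genes, and the log2 difference was 2.30 ± 0.45 (edgeR adjusted p 4.654e-05). Its LNCaP counts alone took UGT2B11 past the filter. UGT2B28, which also accepts androgens, had at most 2 counts in any library and 7 in all, and supports no comparison. Both genes had 0 counts in PC3. The 4 UGT2B genes together came to 538 ± 210 CPM in LNCaP DMSO and 124 ± 10.2 CPM in 22Rv1 DMSO.

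The other members are spread over the genome. SRD5A1 (ENSG00000145545.12) spans chr5:6633427-6674386, SRD5A3 (ENSG00000128039.13) chr4:55346213-55373100, HSD17B4 (ENSG00000133835.18) chr5:119452465-119637199 and AKR1C3 (ENSG00000196139.14) chr10:5035354-5107686 on the plus strand, and CYB5A (ENSG00000166347.19) chr18:74250846-74291973 on the minus strand. Antisense genes overlapping the 3′ ends of UGT2B11 and SRD5A3 held 2 and 1 counts over all 14 libraries, against 128 and 571 for the members. A protein-coding gene on the same strand, ENSG00000288695, also overlaps the 3′ end of SRD5A3, and no counts were found for it. Whether that overlap cost SRD5A3 reads was not tested.

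Of the members that form or convert androgens and were kept by the filter, CYB5A had the largest fitted difference between the lines, at 1061, 1190.5 and 1091 CPM in LNCaP DMSO and 305, 271 and 318 CPM in 22Rv1 DMSO (log2 difference 1.89 ± 0.13, edgeR adjusted p 8.081e-16). HSD17B4, a peroxisomal enzyme that oxidises both steroids and fatty acids, was at 142, 185 and 153 CPM in LNCaP and 99.7, 87.3 and 97.9 CPM in 22Rv1 (0.72 ± 0.17, adjusted p 6.468e-04). Neither gene overlapped between the lines, as was so for 56.3% of all tested genes. SRD5A3, which makes dolichol for protein glycosylation and is also named a steroid reductase, was at 100.01 ± 11.7 against 65.4 ± 12.5 CPM (0.62 ± 0.20, adjusted p 0.009364). That call was lost without LNCaP DMSO replicate 1 (0.0583) or 22Rv1 DMSO replicate 2 (0.0602), with library totals (0.0897) and at equal depth (0.538), and the adjusted p ran from 0.00707 to 0.538. SRD5A1, the testosterone reductase, did not pass (23.1 ± 7.82 against 26.3 ± 7.83 CPM, log2 difference -0.31, 95% interval -0.98 to 0.36, adjusted p 0.464). CYP17A1, the enzyme of the lyase step that CYB5A supports, had 0 counts in all 14 libraries. So had SRD5A2 and HSD17B3 of the same androgen synthesis list, which does not show absence of expression. Whether the level of CYB5A bears on androgen synthesis in these cells was not tested.

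AKR1C3, which turns androstenedione into testosterone, had the opposite order. LNCaP DMSO held 1, 0 and 0 counts and 22Rv1 DMSO 3, 1 and 6. Summed, this was a ratio of 0.104 (exact interval 0.00241 to 0.734), which covers counting error only. No AKR1C3 count was seen in PC3. Over its last 500 bases, 27.1% of 50-base windows of AKR1C3 also occur in AKR1C1, AKR1C2 or AKR1C4, so that its few counts are uncertain.

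The order of mean levels between DMSO groups was thus LNCaP, 22Rv1, PC3 for the UGT2B genes, HSD17B4, SRD5A3 and CYB5A, although UGT2B17 and UGT2B28 in 22Rv1 and PC3 were at or under the limit of 3 counts. In PC3 DMSO, HSD17B4 stood at 52.8 CPM (exact Poisson interval 39.2 to 69.6), SRD5A3 at 51.8 (38.3 to 68.4), CYB5A at 218 (188.9 to 249.4) and SRD5A1 at 8.45 (3.65 to 16.6). For SRD5A3 the PC3 value lay within the range of 22Rv1 DMSO (50.9 to 72.9 CPM). With 1 library, PC3 had no replicate check.

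To determine the response to CDK8 and CDK19 inhibition in 22Rv1, treated and DMSO libraries were compared. In this line 3 of the 7 genes tested passed, with UGT2B15 and HSD17B4 lower and CYB5A higher. Across all genes 5.7% passed in this comparison, 4.15% higher and 1.55% lower, and this contrast was among those known when the genes were picked.

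UGT2B15 fell to 26.5% of its control level. The 22Rv1 DMSO libraries held 56, 65 and 106 counts (107, 118 and 124 CPM) and the SEL120-34A libraries 10, 11 and 7 (27.0, 46.2 and 19.5 CPM). The highest treated library lay under the lowest control by more than the whole spread of either group. Non-overlap in either direction was seen for 22.8% of tested genes. The fitted change was -1.99 ± 0.36 on the log2 scale (95% interval -2.73 to -1.25, edgeR adjusted p 3.466e-04). It stayed past the threshold in all 22 alternatives that gave a value, from -2.30 to -1.73.

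Liver-type markers (5 genes) were examined because UGT2B enzymes are abundant in liver, and ALB (albumin), the 1 of them kept by the filter, also fell in this line (-2.31, edgeR adjusted p 6.27e-14). The summed level of the 5 was 668 to 722 CPM in 22Rv1 DMSO and 116 to 164 CPM after SEL120-34A, nearly all of it ALB, with APOA1 and FGB at 0 in both arms, APOH at 11 and 1 counts and TTR at 3 and 2. In LNCaP, which has the most UGT2B mRNA, that sum was at most 19.1 CPM. The part of this in the UGT2B15 result was not tested.

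The other UGT2B members were low in 22Rv1, and their responses are given as counts. UGT2B11 counts were 3, 4 and 7 in DMSO and 1, 2 and 2 in SEL120-34A, a ratio of summed counts of 0.712 (exact interval 0.201 to 2.09), so a fall as large as that of UGT2B15 could not be told from no change. UGT2B17 gave 1 count against 2. The summed UGT2B level was 124 ± 10.2 CPM in DMSO and 38.2 ± 15 CPM after SEL120-34A, with no overlap (exact permutation test, two-sided p = 0.1, the smallest that 3 against 3 can give).

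**Figure D2:**
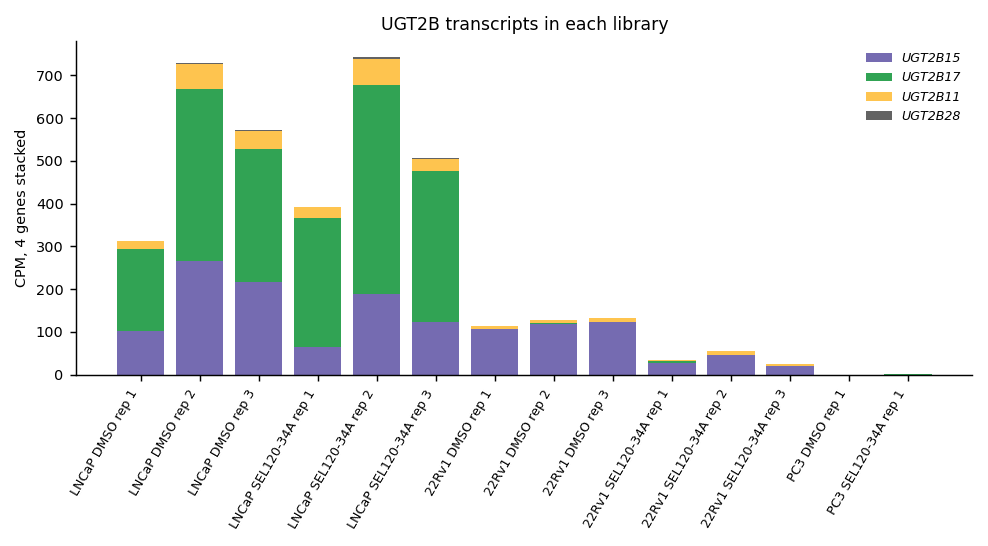
Stacked bars of the 4 UGT2B genes in each of the 14 libraries, in CPM on a linear axis from 0. UGT2B17 makes up most of the bar in LNCaP, UGT2B15 makes up 92.9% to 94.9% of the counts in 22Rv1 DMSO and 76.9% to 84.6% after SEL120-34A, and PC3 has a single UGT2B17 count.

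HSD17B4 fell in 22Rv1 from 99.7, 87.3 and 97.9 CPM to 40.5, 42.0 and 61.3 CPM. Every treated library lay under every control, as was so for 10.3% of tested genes. The log2 change was -0.96 ± 0.24 (95% interval -1.45 to -0.47, edgeR adjusted p 0.01131). Treated libraries rested on 15, 10 and 22 counts, and the call was lost without 22Rv1 SEL120-34A replicate 1 (-0.82, adjusted p 0.110) or 2 (-0.89, 0.0751). Over its 24 alternatives the adjusted p ran from 0.00366 to 0.110.

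CYB5A rose in 22Rv1 from 305, 271 and 318 CPM to 397, 462 and 393 CPM. Every treated library lay above every control, as was so for 12.6% of tested genes. The log2 change was 0.48 ± 0.14 (edgeR adjusted p 0.03343). This call was not stable. It was lost in 9 of 24 alternatives, among them library totals (0.33, 0.120), no low-count filter (0.42, 0.207), equal depth (0.40, 0.141) and limma-trend (0.48, 0.0501). It was also lost without DMSO replicate 1 (0.0801), 2 (0.129) or 3 (0.0675) and without SEL120-34A replicate 1 (0.0775) or 2 (0.158). Adjusted p values ran from 0.0181 to 0.207.

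The reductases did not pass in 22Rv1. SRD5A1 was at 26.3 ± 7.83 CPM in DMSO and 27.1 ± 6.23 CPM after SEL120-34A (0.04, 95% interval -0.70 to 0.79, edgeR adjusted p 0.9692), and its sign turned with library totals (-0.10) and without the filter (-0.02). SRD5A3 was at 65.4 ± 12.5 and 55.6 ± 3.32 CPM (-0.23, -0.74 to 0.27, adjusted p 0.680). AKR1C3 counts were 3, 1 and 6 in DMSO and 3, 3 and 7 in the shallower treated libraries, or 4.86 ± 2.70 and 13.4 ± 5.75 CPM. The ratio of summed counts was 2.59 (exact interval 1.05 to 6.6, counting error only), and in the fit without a filter its adjusted p was 0.594.

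In LNCaP, 1 of the 7 genes passed the test. CYB5A rose from 1061, 1190.5 and 1091 CPM in DMSO to 2193, 1702 and 1936 CPM after SEL120-34A, a mean of 174% of control. Every treated library lay above every control, as did treated libraries for 8.72% of tested genes. The log2 change was 0.84 ± 0.12 (95% interval 0.60 to 1.08, edgeR adjusted p 1.133e-05), and it passed in all 24 alternatives, from 0.73 to 0.92. Among all genes 2.77% passed in this comparison, 1.99% higher and 0.776% lower.

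UGT2B15 and UGT2B17 had changes of opposite sign in LNCaP, and neither passed. UGT2B15 was at 102, 267 and 217 CPM in DMSO and 64.8, 188 and 124 CPM after SEL120-34A (-0.51 ± 0.25, 95% interval -1.0 to -0.01 before correction, edgeR adjusted p 0.3572). It passed without LNCaP DMSO replicate 1 (-0.84, adjusted p 0.0283), the library with the lowest UGT2B15 control level, and adjusted p values ran from 0.0267 to 0.764 over 22 alternatives. UGT2B17 was at 193, 400.2 and 310.4 CPM in DMSO and 301, 489.6 and 353 CPM after SEL120-34A (0.42 ± 0.19, interval 0.04 to 0.80, adjusted p 0.2893). For both genes treated and control libraries overlapped, and within each arm the same library (DMSO replicate 1, SEL120-34A replicate 1) was lowest for both.

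Within a library, the ratio of the pair is free of library size. UGT2B17 counts were 1.89, 1.50 and 1.43 times those of UGT2B15 in LNCaP DMSO and 4.65, 2.61 and 2.85 times after SEL120-34A. The lowest treated ratio exceeded the highest control ratio, and the means were 1.61 ± 0.25 and 3.37 ± 1.11 (SD, n = 3). An exact permutation test, two-sided, gave p = 0.1, the smallest possible with 3 against 3, for a ratio chosen after the values were seen. The summed UGT2B level hardly differed, at 538 ± 210 and 548 ± 179 CPM (exact permutation p = 0.9).

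Of the other members in LNCaP, UGT2B11 was at 39.3 ± 20.6 and 38.1 ± 19.7 CPM (0.10, 95% interval -0.64 to 0.83), and its sign turned under 4 alternatives. HSD17B4 was at 159.9 ± 22.2 and 180.4 ± 39.3 CPM (0.20, -0.15 to 0.55, edgeR adjusted p 0.693). SRD5A1 was at 23.1 ± 7.82 and 24.996 ± 5.03 CPM (0.17, -0.61 to 0.95). SRD5A3 was at 100.01 ± 11.7 and 85.2 ± 22.9 CPM (-0.18, -0.60 to 0.24). UGT2B28 (3 counts in each arm) and AKR1C3 (1 and 2 counts) were under the level at which a change could be seen.

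**Figure D3:**
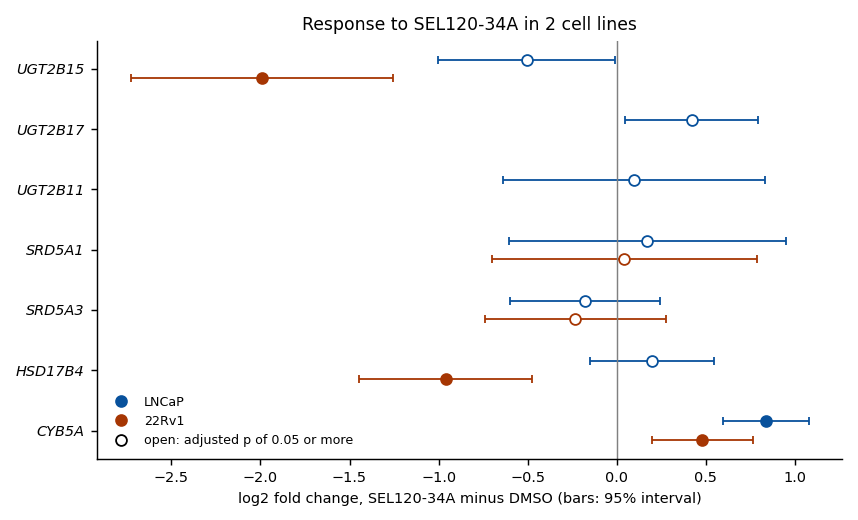
Fitted log2 fold change after SEL120-34A in LNCaP (blue) and 22Rv1 (brown), with 95% intervals and filled points for an edgeR adjusted p under 0.05. Genes with 3 or fewer counts in every library of an arm are left out for that line. UGT2B15 and HSD17B4 lie to the left of 0 in 22Rv1 at -1.99 and -0.96, and CYB5A to the right in both lines.

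Whether a response differed between the lines was tested as the LNCaP change minus the 22Rv1 change. HSD17B4 was the 1 member to pass, with a difference of 1.16 ± 0.30 on the log2 scale (95% interval 0.56 to 1.76, edgeR adjusted p 0.04985), and 0.734% of all genes passed (0.268% higher and 0.466% lower). It sat at the threshold and was lost in 14 of 23 alternatives, with adjusted p values from 0.0302 to 0.239. The 8 single libraries whose removal ended the call were LNCaP DMSO replicates 1 (0.109) and 3 (0.101), LNCaP SEL120-34A replicate 1 (0.163), 22Rv1 DMSO replicates 1 (0.0826), 2 (0.0543) and 3 (0.0960) and 22Rv1 SEL120-34A replicates 1 (0.239) and 2 (0.153).

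The larger difference of UGT2B15, 1.48 ± 0.46 (0.56 to 2.41), did not pass (edgeR adjusted p 0.1433). It did without LNCaP DMSO replicate 2 (1.71, adjusted p 0.0487) and without the low-count filter (1.46, 0.0214), within a range of 0.0214 to 0.463 over 21 alternatives. When UGT2B15 and UGT2B17 counts were added into 1 feature, which removes any division of reads between them, the change was 0.10 ± 0.19 in LNCaP and -1.90 ± 0.35 in 22Rv1. That difference, 2.003 ± 0.40, had an edgeR adjusted p of 0.00531. UGT2B17 gave 54.3% to 76.7% of the UGT2B counts in LNCaP libraries, but 3 of the 258 counts of the pair in 22Rv1. The sum thus set mostly UGT2B17 in LNCaP against UGT2B15 in 22Rv1, and did not test the difference of UGT2B15 itself. For CYB5A the difference was 0.36 ± 0.18 (-0.02 to 0.73, adjusted p 0.4606), so its larger rise in LNCaP was not shown to differ from that in 22Rv1.

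In PC3 there was no test. HSD17B4 went from 50 to 20 counts, 52.8 to 34.1 CPM, a ratio of 0.645 (exact interval 0.364 to 1.10). SRD5A3 had 49 and 51 counts and a ratio of 1.68 (1.11 to 2.54). SRD5A1 had 8 and 10 counts (2.02, 0.717 to 5.88) and CYB5A 206 and 115 (0.901, 0.710 to 1.14), so the rise of CYB5A in the other lines was not matched in this pair of libraries. Among 10023 genes with more than 3 counts in both libraries, the middle 50% of log2 ratios ran from -0.29 to 0.35, and 10.7% of genes were at or under the -0.63 of HSD17B4. These intervals cover counting error only and compare 2 libraries, not the conditions.

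**Figure D4:**
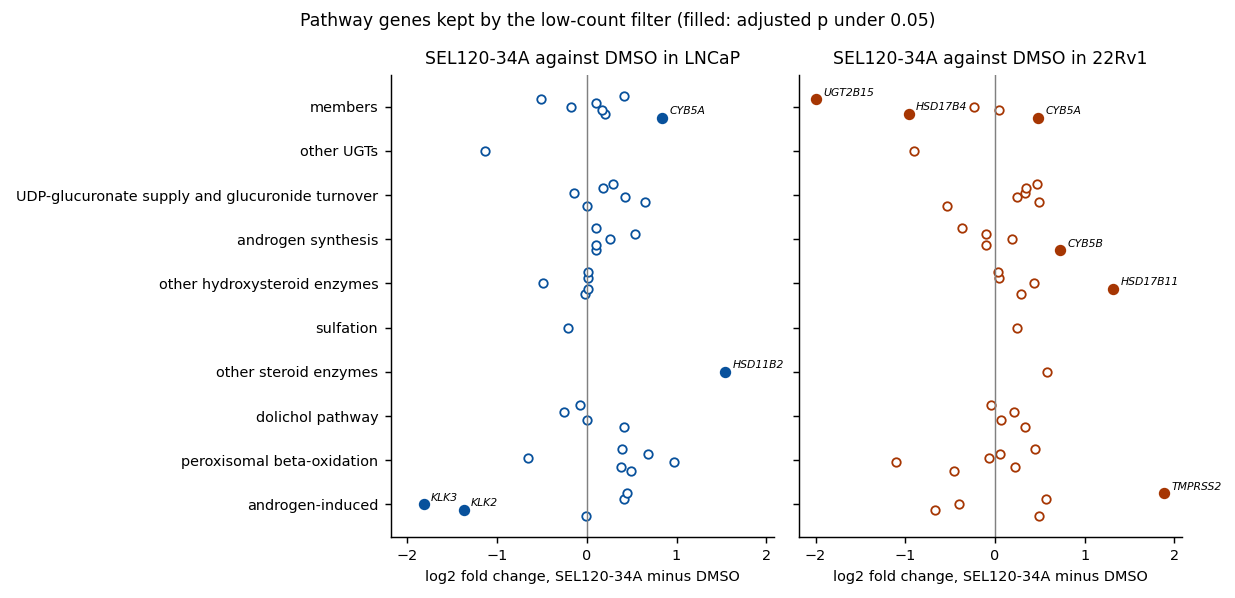
Log2 fold change after SEL120-34A of the members and of the other genes of 9 lists that the low-count filter kept. Points, 1 per gene, are for LNCaP (left) and 22Rv1 (right), filled where the edgeR adjusted p is under 0.05. UGT2B17 and UGT2B11, with 3 or fewer counts in every library of a 22Rv1 arm, are left out on the right. The members lie in the top row, and 3 other genes outside the androgen-induced list are filled, HSD11B2 in LNCaP and CYB5B and HSD17B11 in 22Rv1.

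The 8 surrounding enzyme lists (85 genes: other UGTs, supply of UDP-glucuronate and export of glucuronides, androgen synthesis, other hydroxysteroid enzymes, sulfation, other steroid enzymes, dolichol synthesis and peroxisomal oxidation) were written from general knowledge, and 29 of their genes could be tested. In LNCaP 1 of the 29 passed, a share of 3.45% against 2.77% of all genes. This was HSD11B2, which inactivates cortisol, with a rise from 45.0 ± 6.37 to 128 ± 27.9 CPM (1.54 ± 0.24, edgeR adjusted p 4.129e-05). None fell by this test. At an unadjusted p under 0.05, 6 were higher and 2 lower. DESeq2, and limma-trend over 34 list genes, likewise called 1 higher and 0 lower. The median change of the 29 was 0.10, against 0.00076 over all tested genes.

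In 22Rv1, 2 of the 29 passed (6.9% against 5.7% of all genes) and both rose. HSD17B11, which oxidises androstanediol to androsterone, went from 65.5 ± 3.15 to 162 ± 21.4 CPM (1.32 ± 0.20, edgeR adjusted p 1.963e-05). CYB5B, the mitochondrial relative of CYB5A, went from 122 ± 7.26 to 202 ± 17.9 CPM (0.72 ± 0.17, adjusted p 0.005146), and lost its call without the filter (0.0528, with 0.00361 the lowest of its alternatives). DESeq2, which gave no value for HSD17B11, called 1 gene higher. None of the 29 fell by edgeR or DESeq2, and 1 was lower at an unadjusted p under 0.05. On the deposited values limma-trend, which covered 34 list genes, called 2 higher and 1 lower. The list gene UGT2B10 was removed by the filter and fell in the edgeR fit without it (adjusted p 8.45e-05, see other observations). The median change of the 29 was 0.22, against 0.0025 over all tested genes.

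None of the 29 differed in response between the lines by edgeR, DESeq2 or limma-trend after adjustment. In edgeR, 3 were higher and 2 lower at an unadjusted p under 0.05. The glucuronidation supply list gave 0 of 6 tested genes past the edgeR threshold in either line, with UGDH, which makes UDP-glucuronate, at 103 ± 30.3 and 126 ± 23.9 CPM in the 22Rv1 arms. The peroxisomal list of HSD17B4 gave 0 of 6 in either line, and the dolichol list of SRD5A3 0 of 4. For each, the smallest adjusted p was 0.1013, 0.1245 and 0.4001 in LNCaP and 0.4277, 0.2479 and 0.5388 in 22Rv1.

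Between the DMSO groups 16 of the 29 passed (55.2% against 49% of all genes), 8 in each direction. Higher in LNCaP were ABCC4 (2.31), an exporter of glucuronides and other conjugates, the steroidogenic electron carriers FDXR (1.79) and FDX1 (0.69), DPAGT1 (1.40) and DOLK (0.63) of the dolichol pathway, and ECI2 (2.52), ABCD3 (1.17) and SCP2 (0.53) of fatty acid oxidation. Higher in 22Rv1 were HSD17B11 (-2.97) and HSD17B12 (-1.47), UGDH (-1.11), UGT8 (-1.04), PAPSS1 (-0.89), CYB5R3 (-0.84), PEX5 (-0.73) and CYB5B (-0.58).

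Androgen-induced genes served as a reference for the same libraries. In LNCaP, KLK3 (-1.82, edgeR adjusted p 1.345e-11) and KLK2 (-1.37, 2.852e-08) fell, and FKBP5 and TMPRSS2 did not pass. In 22Rv1 KLK3, KLK2 and FKBP5 did not pass, and TMPRSS2 rose (1.89, adjusted p 0.02456) on 2 to 10 counts per library. The TMPRSS2 call was lost without DMSO replicate 1 (0.0723) or 3 (0.151), without SEL120-34A replicate 1 (0.159) or 2 (0.132), at equal depth (0.169) and in limma-trend (0.0657), and its adjusted p ran from 0.00763 to 0.169. KLK3 in 22Rv1 was at 19.8 ± 9.64 and 13.7 ± 5.24 CPM (-0.40, adjusted p 0.7046).

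The genes whose log2 CPM ran most like that of UGT2B15 over the 12 LNCaP and 22Rv1 libraries were CNOT7 (Pearson r 0.897), HUWE1 (0.885), CPSF6 (0.870), GOLM2 (0.867) and FARSB (0.855), out of 3885 with a mean of at least 20 counts. Over the 6 libraries of 22Rv1 they included RAB7A (0.977), EMG1 (0.970), VKORC1L1 (0.962) and CHMP3 (0.960). Among the members, r with UGT2B15 over 12 libraries was 0.75 for UGT2B11, 0.72 for HSD17B4, 0.60 for SRD5A3, 0.59 for UGT2B17, 0.41 for CYB5A and -0.20 for SRD5A1. In 22Rv1 alone it was 0.79 for HSD17B4 and -0.78 for CYB5A. These values follow the shared groups, depth and library of the points and carry no test.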

How the data were processed

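RNA was sequenced by BRB-seq in 14 libraries. The deposited counts are whole-number 3′ tag counts per gene, made by the authors with STARsolo on GRCh38.p13 (per the submitters' processing notes) and GENCODE 43. Collapse of duplicate molecules is not given in the sources used here. The authors also deposited log2 CPM values for 9638 genes, recomputed here from the counts to within 5e-14 and used for limma-trend. Counts were taken as deposited. CPM used TMM factors over all 14 libraries.

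The members and lists were chosen with earlier results of these data known. LNCaP and 22Rv1 (12 libraries, 4 groups, 8 residual degrees of freedom) were fitted with edgeR 4.0.16 (R 4.3.3) by the quasi-likelihood test after its low-count filter, which kept 7086 genes. Benjamini-Hochberg adjustment covered all of them, and an adjusted p under 0.05 was called. The 95% intervals are not corrected for multiple testing. No fitted fold of a member is given where every library of an arm held 3 counts or fewer. Count ratios have exact binomial intervals, PC3 levels exact Poisson intervals, and both, like the floor of 3 counts, cover counting error only. Beside the members, the named genes were list genes past the threshold and the 5 genes most correlated with UGT2B15 (mean of at least 20 counts). UGT2B10, some list genes that did not pass, and within-family ratios were added after their values were seen, and some genes of the rule and lists are not reported here.

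Alternatives were other size factors, library totals, no filter or 10 counts in every library, single-line fits, PC3 added, mitochondrial genes removed, thinning, DESeq2 1.42.0, limma 3.58.1, UGT2B pairs added, an adjusted p under 0.01, a replicate block and leaving out each library. In simulated data, of which the filter kept 6546 genes, 200 genes per line were changed by 1.5 on the log2 scale. Of these the filter kept 183 (LNCaP) and 187 (22Rv1), and 88% and 83.4% of those kept were recovered, with 5.85% and 4.29% of calls false. A change of 1.5 is larger than those fitted for CYB5A and HSD17B4. Simulated levels were pooled over the 12 libraries, without differences between the lines, and the spread followed the trend with level, not each gene. The recovered shares therefore do not hold for any single member. Promoters came from RefSeq (GRCh38.p14) and gene positions from GENCODE 44, with alignments by Biopython 1.88 (Python 3.11.15) and plots by matplotlib 3.10.9.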

Additional observations from a re-analysis of the deposited data

Results flagged for a closer look

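The response of HSD17B4 to SEL120-34A differed between LNCaP and 22Rv1 by the interaction term of the edgeR quasi-likelihood fit. The LNCaP change minus the 22Rv1 change was 1.16 on the log2 scale (adjusted p 0.04985), from 159.9 ± 22.2 to 180.4 ± 39.3 CPM in LNCaP and from 95.005 ± 6.71 to 47.9 ± 11.6 CPM in 22Rv1 (SD, n = 3 in each group). The value sat at the threshold, and the call was lost in 14 of 23 alternatives, with adjusted p values from 0.0302 to 0.239, among them DESeq2 (0.0791), limma-trend (0.155), equal depth (0.154) and the removal of any of 8 single libraries.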

How the results depend on the processing

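CYB5A and HSD11B2 in LNCaP and UGT2B15 and HSD17B11 in 22Rv1 passed under every alternative that gave a value (24, 24, 22 and 22). Leaving out 1 library at a time gave 1 to 2 members called in LNCaP, 1 to 3 in 22Rv1 and 0 to 2 for the difference between lines. At an adjusted p under 0.01, 1 member passed in 22Rv1 and 0 for the difference. The difference also had 0 members with DESeq2 size factors, with PC3 added, at equal depth, in DESeq2 and in limma-trend, and 2 with UGT2B pairs added. In that last count the summed UGT2B15 and UGT2B17, which differ in their share between the lines, stood as 1 member. LNCaP against 22Rv1 DMSO gave 3 members at equal depth and 3 with at least 10 counts in every library, a filter that UGT2B17 and other low genes cannot pass. With the replicate number as a block in edgeR, 2 members passed in LNCaP (UGT2B15 at -0.63, adjusted p 0.0267) and 2 for the difference (UGT2B15 at 1.35, adjusted p 0.0218). The block also raised the genes called from 196 to 275 in LNCaP and from 404 to 479 in 22Rv1. Same-numbered libraries correlated at -0.038 to 0.2545 in LNCaP, against -0.3048 to 0.1169 for unlike numbers. In 22Rv1 these were -0.036 to 0.082 and -0.1412 to 0.1147. The values do not settle whether the numbers pair samples, and the main fit did not pair them. Signs of small changes turned. UGT2B11 in LNCaP was -0.068 with the block, -0.0037 in limma-trend and -0.43 to 0.40 with a library left out. SRD5A1 in 22Rv1 was -0.10 with library totals, -0.022 without the filter and -0.16 to 0.29 with a library left out. SRD5A1 with a library left out was -0.076 to 0.35 in LNCaP and -0.12 to 0.34 for the difference, and the SRD5A3 difference was -0.037 in limma-trend and -0.20 to 0.21 with a library left out. For these the cause was not tested. Library totals moved the median of all genes by -0.146 in 22Rv1. Depth limits UGT2B11, UGT2B17, UGT2B28 and AKR1C3, whose floor of 3 counts was 8.09 to 12.6 CPM in treated 22Rv1.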

Other observations

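UGT2B10, a relative that glucuronidates nicotine and other amines and was singled out after its values were seen, was detected in 22Rv1 and removed by the low-count filter. The 22Rv1 DMSO libraries held 11, 18 and 30 UGT2B10 counts and the SEL120-34A libraries 2, 1 and 0. Summed, 3 counts against 59 gave a ratio of 0.101 (exact interval 0.0203 to 0.311, counting error only), and in the edgeR fit without a filter, over 21395 genes, its adjusted p was 8.45e-05. In LNCaP 11 counts stood against 17, a ratio of 1.06 (0.450 to 2.41), and the difference between the lines did not pass (edgeR adjusted p 0.133). Between the DMSO groups UGT2B10 was lower in LNCaP, with 17 counts against 59 (ratio 0.301, 0.164 to 0.523, edgeR adjusted p 0.000373 without a filter).

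AKR1C2, which inactivates dihydrotestosterone, had 9 counts in 22Rv1 DMSO and 13 after SEL120-34A, a ratio of 2.88 (exact interval 1.14 to 7.63). Its near-identical relative AKR1C1 had 8 and 8 counts, a ratio of 1.99 (0.652 to 6.09), and the pair may share reads. UGT8, which makes galactosylceramide, was at 57.95 ± 4.08 and 29.05 ± 21.2 CPM in the 22Rv1 arms (log2 change -0.90, edgeR adjusted p 0.0976). Of the 18 other UGT genes, 12 had 0 counts in all 14 libraries. Sharing of 3′ ends was not examined for these genes, among them UGT1A genes, so 0 counts do not show absence of expression.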
